A study of Rattus norvegicus with 12 samples.

Results

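Genes whose response to I-BET762 differed between cytokine-exposed and resting INS-1 cells were examined. For each gene the I-BET difference without cytokines was subtracted from the I-BET difference with cytokines, and this interaction was computed on a log2 scale from the mean FPKM of each group, after adding 1 FPKM. FPKM counts sequenced fragments per kilobase of gene, scaled for how deeply a library was read. Genes were chosen by these measured values, where the CCIB mean (both treatments) lay 1.5-fold or more above or below the value that adding both log2 responses would give. Adding on the log2 scale multiplies fold changes, and additive has this meaning throughout. It does not mean a sum of FPKM differences. Every fold comparison of means below, such as 1.5-fold, was made on FPKM + 1. At low levels it differs from the fold of the printed means. Of 8795 genes whose 4 group means averaged 1 FPKM or more, 177 (2.01%) had a positive interaction of that size and 250 (2.84%) a negative one. The deposited table lists 9694 genes, and 899 lay under the minimum level.

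I-BET762 occupies the acetyl-lysine pockets of the BET proteins, which bind acetylated histones and help RNA polymerase II to leave promoters and enhancers. IL-1β and TNF-α act through NF-kB and MAP kinases, and IFN-γ through JAK kinases, and together they are used in β-cells to imitate the inflamed islet of type 1 diabetes. Cytokine-exposed β-cells also phosphorylate eIF2α, which raises translation of the transcription factor Atf4, and Atf4 in turn drives genes of amino acid transport, amino acid synthesis and tRNA charging. Both treatments thus act on transcription, and a gene can respond to them in a way that does not add up.

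INS-1 is a rat insulinoma line that secretes insulin and serves as a β-cell model. CCIB cells received I-BET762 at 500 nM and then TNF-α at 25 ng/mL, IL-1β at 10 ng/mL and IFN-γ at 100 ng/mL, CCVC cells the same cytokines after vehicle, IB cells I-BET762 alone and VC cells vehicle alone, with 3 libraries in each group. Pretreatment lasted 48 h. The cytokine time is 8 h in the treatment protocol and in the study's own account of this RNA sequencing, while the design text gives the last 24 h of 72 h. All groups are 1 cell line, and nothing in the labels says whether libraries came from separate cultures. The deposited table holds only the authors' mean of each group and 0 columns of single libraries, so no value below carries an error, no test could be run, and all comparisons are descriptions of 4 means. It also holds only genes that the authors had selected as differing in some comparison. All 10 β-cell markers examined were listed at 1 FPKM or more. Their summed means were 28906 FPKM in CCIB, 16066 FPKM in CCVC, 39323 FPKM in IB and 19413 FPKM in VC. Most of each sum was Ins1, at 20738 FPKM in CCIB, 10243 FPKM in CCVC, 26722 FPKM in IB and 11528 FPKM in VC. The sums therefore do not describe the other markers. The leucocyte markers listed were 0 of 8. Of 8 mesenchymal and endothelial markers 2 were listed and 0 reached 1 FPKM, and the acinar and ductal markers listed were 1 of 10, the keratin gene Krt7, at 141 to 218 FPKM. Of 8 markers of other endocrine cells 1 was listed, the glucagon gene Gcg, at 675 FPKM in CCIB, 343 FPKM in CCVC, 1240 FPKM in IB and 636 FPKM in VC (interaction 0.01). In bulk RNA, fewer cells with a transcript and less of it per cell cannot be told apart.

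Most genes came close to additivity. The median interaction over the 8795 genes was -0.03 and 5% of genes lay below -0.47 and 5% above 0.41. The interactions of the selected genes ran from -3.89 to 3.91 with a median size of 0.74, and 101 of them were off by 2-fold or more, 42 upwards and 59 downwards. At the positive border, Stil and LOC100909466 lay just inside and Ankrd37 just outside. At the negative border, Ehbp1 and Snupn lay just inside and Rhebl1 and Elavl4 just outside. All of these values round to 0.58 or 0.59 in size.

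Positive genes fell mainly into 2 patterns, with folds taken after adding 1 FPKM. In 52 of 177 the CCIB mean was at least 1.5-fold above the CCVC mean while IB and VC lay within 1.5-fold of each other, and in 70 of 177 the IB mean was lower than the VC mean while CCIB and CCVC lay within 1.5-fold. A further 27 were lower with I-BET in both settings, less so with cytokines, and 27 passed the criterion in neither setting. The remaining gene, Pdgfb, was higher with I-BET under cytokines and lower without them. IB held the lowest of the 4 means in 104 positive genes (58.8%, against 25.6% of all genes). Over all 8795 genes, 134 held the first of the 2 main patterns and 305 the second.

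Among negative genes, in 90 of 250 the CCIB mean was lower than the CCVC mean with IB and VC within 1.5-fold, and in 66 of 250 the IB mean was higher than the VC mean with CCIB and CCVC within 1.5-fold. In 63 neither I-BET difference passed the criterion, 15 were lower with I-BET in both settings, 5 were higher in both and 11 were higher without cytokines and lower with them. CCVC held the highest mean in 136 negative genes (54.4%, against 27.1% of all genes) and IB in 88 (35.2%, against 24.2%). Over all 8795 genes, 395 were lower in CCIB than CCVC with IB and VC within 1.5-fold. Another 261 were higher in IB than VC with CCIB and CCVC within 1.5-fold.

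The rule used all 4 means, so the counts by pattern above and those that follow only describe its result. CCIB against CCVC, 53 positive and 5 negative genes were higher (3.4% of all 8795 genes were) and 27 positive and 116 negative genes were lower (11.6% of all). IB against VC, 0 positive and 82 negative genes were higher (4.96% of all) and 98 positive and 15 negative genes were lower (10.5% of all). CCIB against IB, 102 positive and 38 negative genes were higher (12.9% of all) and 13 positive and 87 negative genes were lower (12.9% of all). CCVC against VC, 64 positive and 125 negative genes were higher (13.9% of all) and 52 positive and 23 negative genes were lower (10.2% of all). These comparisons share groups with each other.

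**Figure D1:**
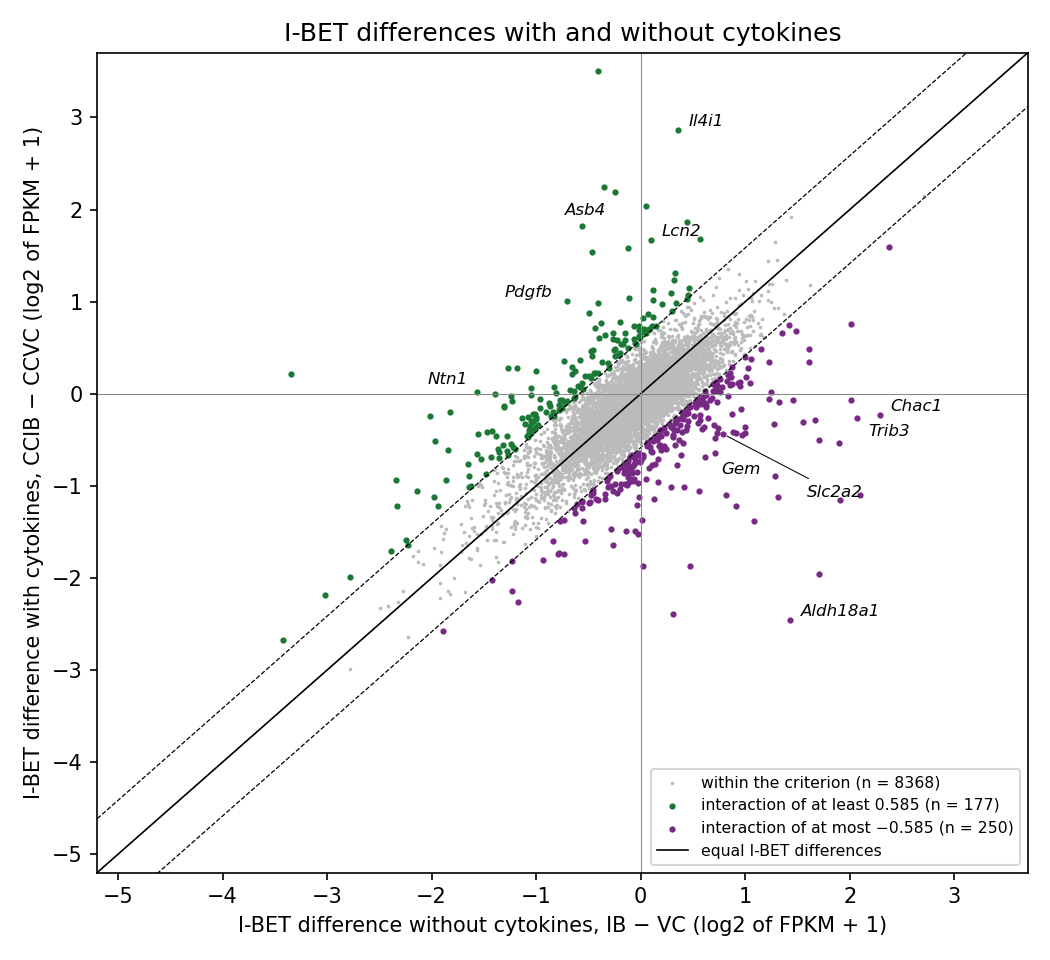
Each point is 1 of 8795 genes, with the I-BET difference in resting cells (IB minus VC) on the x axis and in cytokine-exposed cells (CCIB minus CCVC) on the y axis, both in log2 of FPKM + 1. The solid line marks equal differences and the dashed lines the 1.5-fold criterion on either side. The 177 green genes lie above the band and the 250 purple genes below it, with Il4i1 far up on the y axis, Chac1 and Trib3 far right, and Aldh18a1 at the lower right.

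Genes of the integrated stress response lay mostly on the negative side. Of 39 listed genes that act with or downstream of Atf4, 11 (28.2%) were negative and 0 positive, and the median was -0.45, beside 2.84%, 2.01% and -0.03 over all genes. Of the 39, 36 had an interaction below 0, as did 4931 of all 8795 genes. This list was put together with earlier results of these data in view. Under a pseudocount of 0.1 FPKM and under upper-quartile scaling the count stayed at 11 of 39, and with a minimum mean of 5 FPKM it was 9 of 36.

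Chac1 encodes an enzyme that breaks down glutathione. Its mean was 61.1 FPKM in CCIB, 71.8 FPKM in CCVC, 26.5 FPKM in IB and 4.65 FPKM in VC. Either treatment alone thus stood well above vehicle, and the combination was no higher than cytokines alone. Responses that add on the log2 scale, where fold changes multiply, would have placed CCIB at 354 FPKM. The ratio of the observed to this value, after adding 1 FPKM to both, was 0.175 (interaction -2.52).

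Trib3, a pseudokinase that restrains Akt and Atf4, had nearly the same profile. It was at 67.1 FPKM in CCIB, 80.6 FPKM in CCVC, 27.7 FPKM in IB and 5.83 FPKM in VC, against an additive value of 342 FPKM (interaction -2.33). Atf3, a stress-induced bZIP factor, was at 22.9 FPKM in CCIB, 24.2 FPKM in CCVC, 15.2 FPKM in IB and 4.90 FPKM in VC (interaction -1.53). Ddit4, an inhibitor of the growth kinase mTORC1, was at 14.6 FPKM in CCIB, 19.0 FPKM in CCVC, 11.1 FPKM in IB and 5.10 FPKM in VC (interaction -1.36). In all 4 of these genes VC was the lowest group and CCVC the highest.

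Aldh18a1, the enzyme of the first step of proline synthesis, had the most negative interaction of all genes, -3.89. It stood at 0.996 FPKM in CCIB, 9.98 FPKM in CCVC, 4.26 FPKM in IB and 0.952 FPKM in VC. Here each treatment alone was higher than vehicle while both together lay next to vehicle, so the I-BET difference had opposite signs, -2.46 with cytokines and 1.43 without on the log2 scale.

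The other stress response genes past the criterion serve amino acid supply. Psat1, of serine synthesis, was at 57.5 FPKM in CCIB, 82.0 FPKM in CCVC, 73.2 FPKM in IB and 56.5 FPKM in VC (interaction -0.87). Slc7a11, the cystine carrier, was at 1.95 FPKM in CCIB, 2.85 FPKM in CCVC, 1.64 FPKM in IB and 0.763 FPKM in VC (interaction -0.97). Slc6a9, a glycine transporter, differed in that IB was below VC, with 4.99 FPKM in CCIB, 11.4 FPKM in CCVC, 5.38 FPKM in IB and 6.69 FPKM in VC (interaction -0.79). Cars, which charges cysteine tRNA, Slc3a2, the heavy chain of several amino acid exchangers, and Slc7a1, the cationic amino acid transporter, had interactions of -0.62, -0.60 and -0.59, and CCVC was the highest of the 4 means in each of the 3.

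Several further genes of this list stopped short of the criterion. Atf4 itself was at 369 FPKM in CCIB, 360.2 FPKM in CCVC, 239 FPKM in IB and 157 FPKM in VC (interaction -0.57), and Ddit3, the death-related partner of Atf4 also known as CHOP, had an interaction of -0.55. Above 0 lay only Gdf15 at 0.05, Nupr1 at 0.17 and the tryptophan tRNA synthetase gene Wars at 0.20. Outside the list, Slc1a4, a carrier of neutral amino acids, had an interaction of -1.30, with 18.8 FPKM in CCIB, 25.4 FPKM in CCVC, 21.7 FPKM in IB and 11.3 FPKM in VC, and Jdp2, a bZIP repressor of AP-1, one of -0.91. In both genes VC was the lowest mean.

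**Figure D2:**
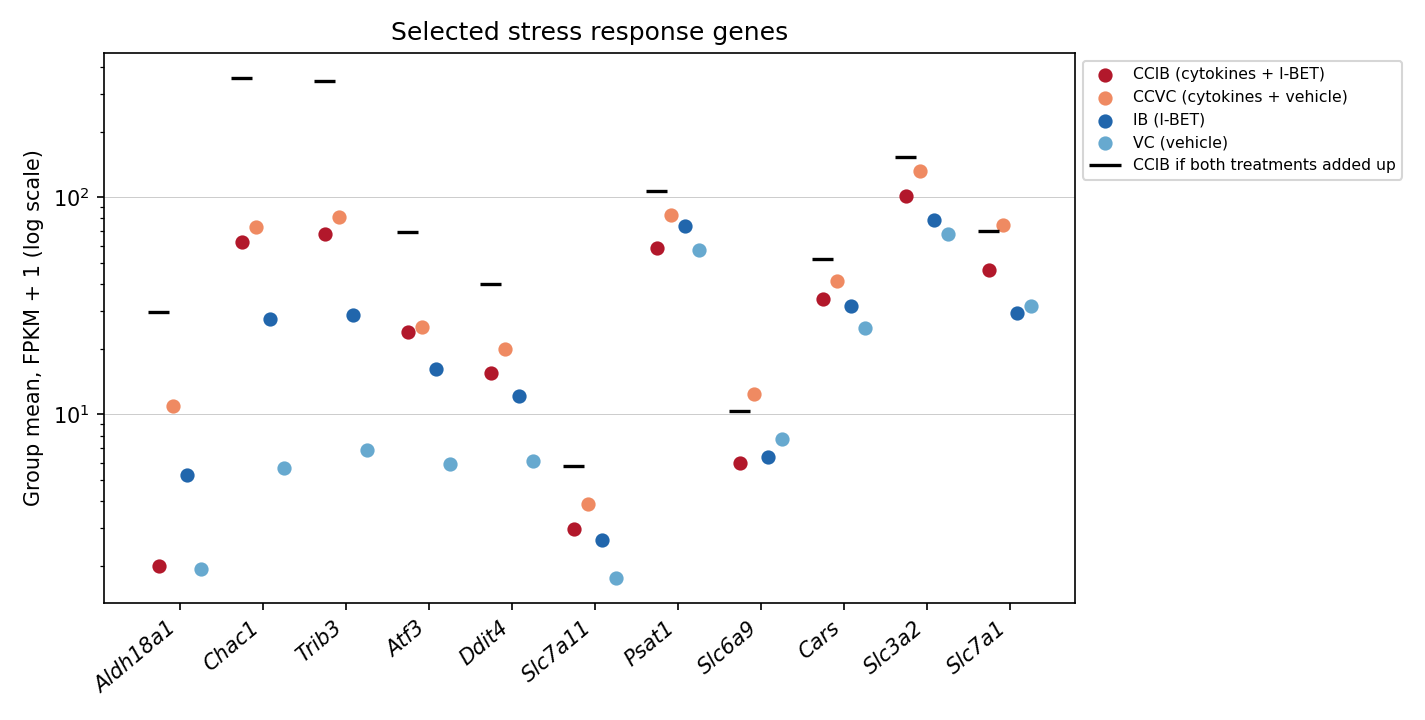
Group means of the 11 stress response genes with a negative interaction, as FPKM + 1 on a log scale, with CCIB, CCVC, IB and VC from left to right in each gene and no error bars, because the table holds group means only. The black bar is the CCIB value that responses additive on the log2 scale would give. The CCIB point lies below its bar in every gene, by most in Aldh18a1, Chac1 and Trib3.

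Windows around the gene start were taken from RefSeq (build GRCr8, 250 bases before to 50 bases after the start, on the strand of the gene). They were found for 36 of the 39 stress response genes, and were searched on both strands for TGANGCAA, the core of the C/EBP-ATF response element (CARE) to which Atf4 binds with C/EBP partners. This motif was chosen after the values were seen. It stood in 10 of these 36 windows (27.8%), 8 of them at tRNA synthetase genes, and in 986 of 27457 windows of all RefSeq genes (3.59%). Of the 11 negative stress response genes 9 had a window, and the pattern stood in those of Chac1 and Cars. Both windows are printed with the matches in capitals, because these are the selected genes of the list that hold one. Outside the list, the windows of Slc1a4 and Jdp2 also hold the pattern and are not shown. The window of Chac1 is chr3:126795881-126796180 (plus strand) and holds 2 matches, beginning at -224 and -167 relative to the gene start. The window of Cars, Cars1 in RefSeq, is chr1:208225320-208225619 (minus strand) and holds 1 match, at 17.
Chac1: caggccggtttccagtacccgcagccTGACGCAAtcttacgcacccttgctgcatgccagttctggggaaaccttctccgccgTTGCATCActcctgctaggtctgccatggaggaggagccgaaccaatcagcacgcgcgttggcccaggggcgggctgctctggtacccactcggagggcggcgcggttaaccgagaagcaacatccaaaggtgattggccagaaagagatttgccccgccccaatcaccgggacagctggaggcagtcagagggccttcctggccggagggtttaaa
Cars: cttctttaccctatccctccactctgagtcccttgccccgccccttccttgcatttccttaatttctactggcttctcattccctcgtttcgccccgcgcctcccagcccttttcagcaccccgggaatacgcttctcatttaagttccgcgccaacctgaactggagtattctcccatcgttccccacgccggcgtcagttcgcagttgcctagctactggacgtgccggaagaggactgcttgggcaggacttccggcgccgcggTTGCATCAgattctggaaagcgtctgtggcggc
A match describes the letters of a window and is not a measured binding site. A window was found for 248 of the 427 selected genes (58.1%), too few for a share over all of them, so that check is void.

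Immediate-early genes of the MAP kinase pathway had another profile. Of 35 genes of this list, 4 (11.4%, beside 2.84% of all genes) were negative and 0 positive, and the median interaction was -0.14. Of the 35, 27 lay below 0, as did 4931 of all 8795 genes. The negative genes were 3 of 35 with a pseudocount of 0.1 FPKM and 3 of 30 with a minimum mean of 5 FPKM. Nr4a1, an orphan nuclear receptor induced by calcium and cAMP, was at 3.60 FPKM in CCIB, 3.53 FPKM in CCVC, 33.2 FPKM in IB and 13.4 FPKM in VC (interaction -1.22). Egr1, a zinc finger factor induced by growth signals, was at 2.67 FPKM in CCIB, 1.62 FPKM in CCVC, 16.8 FPKM in IB and 4.85 FPKM in VC (interaction -1.12). I-BET alone stood above vehicle in both genes, and both cytokine groups were low. Fos and the feedback inhibitor Spry1 had interactions of -0.88 and -0.67 with IB again the highest mean, and Fos, at 0.448 FPKM in CCIB and 0.143 FPKM in CCVC, was at -0.37 with a pseudocount of 0.1 FPKM. At the other end of this list, Dusp5 was at 0.50 and Bhlhe40 at 0.56.

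Slc2a2, the main glucose transporter of rodent β-cells, stood apart in IB. It was at 207 FPKM in CCIB, 281 FPKM in CCVC, 435 FPKM in IB and 251 FPKM in VC (interaction -1.23). Of 40 genes of glucose entry, ion channels and secretagogue signalling, 2 (5%) were negative and 1 (2.5%) positive, beside 2.84% and 2.01% of all genes. The list median was 0.07. The other negative one was Adcyap1r1, the receptor of the peptide PACAP, at 42.3 FPKM in CCIB, 72.5 FPKM in CCVC, 16.7 FPKM in IB and 18.8 FPKM in VC (interaction -0.60, and -0.57 after median centring, which is within the criterion). The positive one was the glucagon receptor gene Gcgr, at 107 FPKM in CCIB, 123 FPKM in CCVC, 31.1 FPKM in IB and 56.6 FPKM in VC (interaction 0.65). Both receptors were thus higher in the cytokine groups, and they differed in which comparison held the I-BET difference.

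Gem, a small GTPase that lowers calcium current at voltage-gated channels, was 1 of the genes in which I-BET had opposite signs. It was at 6.53 FPKM in CCIB, 10.8 FPKM in CCVC, 16.8 FPKM in IB and 9.88 FPKM in VC (interaction -1.35). In all, 12 of the 427 selected genes were of this kind, 11 with a negative interaction and Pdgfb with a positive one, and 8 of the 12 reached 5 FPKM in 1 group. Besides Gem, Aldh18a1 and Pdgfb these were Mir344g and 4 rows known only by identifiers, LOC100911625, LOC100911730, LOC100911994 and AABR06100872.1. FPKM times gene length in kilobases gives fragments scaled for how deeply a library was read, so it is not a count of fragments. With this product at 5 or more in 1 group, 7 genes had opposite I-BET signs. The measure was added after the values were seen.

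A pair of circadian repressors was lowest in vehicle cells. Of 19 clock genes 2 were negative (10.5%, beside 2.84% of all genes) and 0 positive (median -0.08). With a minimum mean of 5 FPKM, 1 of 17 was negative. The highest interaction among the 19 was 0.56, that of Bhlhe40, which also stands in the MAP kinase list. It lay just short of the criterion on the positive side. Nfil3, which represses at D-boxes, was at 17.2 FPKM in CCIB, 22.05 FPKM in CCVC, 15.6 FPKM in IB and 9.24 FPKM in VC (interaction -1.04), and Ciart, a repressor of the Clock and Bmal1 pair, had an interaction of -1.13. VC was the lowest mean of both. Among 156 solute carriers 9 were negative (5.77%, beside 2.84% of all genes) and 1, the sulfate transporter Slc26a2, positive (0.641%, beside 2.01%). Their median was -0.07, and 6 of the 9 are named above. The remaining 3 were Slc25a37, Slc16a1 and the mitochondrial aspartate-glutamate carrier Slc25a13.

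Some negative genes were high only with cytokines and vehicle. Rhob, a small GTPase of endosomes, was at 57.5 FPKM in CCIB, 112 FPKM in CCVC, 69.7 FPKM in IB and 73.6 FPKM in VC (interaction -0.87). Cdc42ep5, an effector of Cdc42, was at 2.82 FPKM in CCIB, 9.76 FPKM in CCVC, 1.72 FPKM in IB and 1.82 FPKM in VC (interaction -1.44). Such genes, in which CCVC stood at least 1.5-fold above 3 groups that lay within 1.5-fold of each other, numbered 27, with folds taken after adding 1 FPKM. CCIB stood below the other 3 in 16 genes, among them Rasd1, a dexamethasone-induced Ras-like GTPase, at 9.63 FPKM in CCIB, 20.4 FPKM in CCVC, 27.0 FPKM in IB and 21.9 FPKM in VC (interaction -1.30). IB stood above the others in 9 genes, with Synm, which encodes the filament protein synemin, at 1.69 FPKM in CCIB, 1.85 FPKM in CCVC, 5.95 FPKM in IB and 1.79 FPKM in VC. VC stood below the others in 10 genes. The larger part of the negative genes, 188 of 250, had no group that stood apart in this sense.

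The largest positive interaction of a gene with a symbol was that of Il4i1. It encodes a secreted L-amino acid oxidase that interferon and NF-kB signals induce in immune cells. Il4i1 was at 90.2 FPKM in CCIB, 11.6 FPKM in CCVC, 4.19 FPKM in IB and 3.05 FPKM in VC, against an additive value of 15.1 FPKM, and the ratio of both after adding 1 FPKM was 5.66 (interaction 2.50). The next gene on the chromosome, Tbc1d17, begins 317 bases further on in the deposited coordinates and was also positive, with 28.7 FPKM in CCIB, 18.2 FPKM in CCVC, 14.1 FPKM in IB and 14.3 FPKM in VC (interaction 0.64).

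Asb4 and Lcn2 had a similar order of groups. Asb4, an adaptor of ubiquitin ligases, was at 19.4 FPKM in CCIB, 4.75 FPKM in CCVC, 0.222 FPKM in IB and 0.808 FPKM in VC (interaction 2.39). Lcn2, a lipocalin that withholds iron from bacteria, was at 22.9 FPKM in CCIB, 6.50 FPKM in CCVC and 0.0686 FPKM in IB and was listed at 0 in VC (interaction 1.58, and 1.05 with a pseudocount of 0.1 FPKM). In all, 28 of the 177 positive genes lay above VC in CCVC and higher again in CCIB, a pattern held by 71 of all 8795 genes.

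This pattern also took in abundant transcripts. Sod2, the mitochondrial superoxide dismutase and a classical NF-kB target, was at 817 FPKM in CCIB, 383 FPKM in CCVC, 85.7 FPKM in IB and 69.8 FPKM in VC (interaction 0.80). Ckmt1b, a mitochondrial creatine kinase, was at 569.7 FPKM in CCIB, 277 FPKM in CCVC, 46.3 FPKM in IB and 50.2 FPKM in VC (interaction 1.15). Hdac11, a histone deacetylase, was at 234 FPKM in CCIB, 115 FPKM in CCVC, 21.7 FPKM in IB and 19.991 FPKM in VC (interaction 0.90). In each of the 3 the CCIB mean was above the CCVC mean by 1.01 to 1.09 on the log2 scale, while IB and VC differed by at most 0.29. Nudt17, a nudix hydrolase, and the citrulline-using enzyme Ass1 of arginine synthesis had interactions of 1.39 and 0.80.

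The list of chemokine and cytokine genes split both ways. Of 18 listed genes 5 (27.8%) were positive and 3 (16.7%) negative, beside 2.01% and 2.84% of all genes, and the median was 0.21. Lif, a cytokine of the IL-6 family, was at 53.7 FPKM in CCIB, 30.8 FPKM in CCVC, 4.16 FPKM in IB and 4.91 FPKM in VC (interaction 0.98). Cx3cl1, the membrane-bound chemokine fractalkine, was at 46.0 FPKM in CCIB, 28.2 FPKM in CCVC, 1.88 FPKM in IB and 1.88 FPKM in VC (interaction 0.69). For both, the I-BET difference was found with cytokines only. Ccl2, a chemokine for monocytes, was at 20.01 FPKM in CCIB, 5.57 FPKM in CCVC, 0.685 FPKM in IB and 0.140 FPKM in VC, with an interaction of 1.11 that was 0.12 with a pseudocount of 0.1 FPKM. Cxcl16, a chemokine for T cells, was positive (interaction 0.70) with similar means of 87.1 FPKM in CCIB and 91.4 FPKM in CCVC but 11.5 FPKM in IB and 20.3 FPKM in VC.

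The neutrophil chemokines Cxcl2 and Cxcl1 lie 10682 bases apart in the deposited coordinates and had opposite signs. Cxcl2 was at 20.6 FPKM in CCIB, 11.996 FPKM in CCVC, 0.118 FPKM in IB and 0.172 FPKM in VC (interaction 0.80). Cxcl1 was at 133 FPKM in CCIB, 136 FPKM in CCVC, 1.27 FPKM in IB and 0.269 FPKM in VC (interaction -0.86). Cxcl1 was thus level between the cytokine groups, and its interaction lay in the resting cells, at 1.27 FPKM or less (-1.92 with a pseudocount of 0.1 FPKM). Ccl20, the ligand of Ccr6, had the other sign from Ccl2, with 1.44 FPKM in CCIB, 6.005 FPKM in CCVC, a listing at 0 in IB and 0.0178 FPKM in VC (interaction -1.498). The negative cytokine gene Il23a had an interaction of -0.74. Outside the list, the chemokine gene Ccl1 and the cytokine gene Il27 were positive, at 0.67 and 0.75.

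The windows of Cxcl1 and Lcn2 hold an NF-kB-like pattern, GGGA and TTCC with any 2 bases between them on either strand, and are printed because these genes fell on opposite sides. This pattern, chosen after the values were seen, lies within the looser one with GGG and CC at 5 bases distance. It stood in 351 of 27457 RefSeq windows (1.28%) and in 94 of 6348 windows of genes kept (1.48%). Among selected genes with a window, 4 of 101 positive (3.96%) and 6 of 146 negative ones (4.11%) held it, and the 2 shown were picked from these. These shares leave out the selected genes without a window. The negative gene Nfkbiz, named below, also held it. The windows of Il4i1, Sod2, Cxcl2, Ccl20, Cx3cl1 and Cxcl16 did not hold it. The window of Cxcl1 is chr14:17479272-17479571 (minus strand) with 2 overlapping matches on opposite strands, beginning at -84 and -83. That of Lcn2 is chr3:36081731-36082030 (minus strand) with 1 match at -242. Capitals mark the matches.
Cxcl1: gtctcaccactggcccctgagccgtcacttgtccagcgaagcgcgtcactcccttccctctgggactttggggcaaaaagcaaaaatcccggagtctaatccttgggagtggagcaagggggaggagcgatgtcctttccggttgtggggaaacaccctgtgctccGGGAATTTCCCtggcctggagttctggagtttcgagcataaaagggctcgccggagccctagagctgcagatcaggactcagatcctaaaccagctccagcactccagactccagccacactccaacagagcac
Lcn2: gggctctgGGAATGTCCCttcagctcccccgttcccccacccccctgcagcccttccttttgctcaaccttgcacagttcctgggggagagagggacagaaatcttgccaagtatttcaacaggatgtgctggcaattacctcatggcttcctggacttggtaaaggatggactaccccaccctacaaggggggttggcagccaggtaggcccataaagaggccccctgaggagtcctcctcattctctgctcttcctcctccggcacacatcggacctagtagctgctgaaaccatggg

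**Figure D3:**
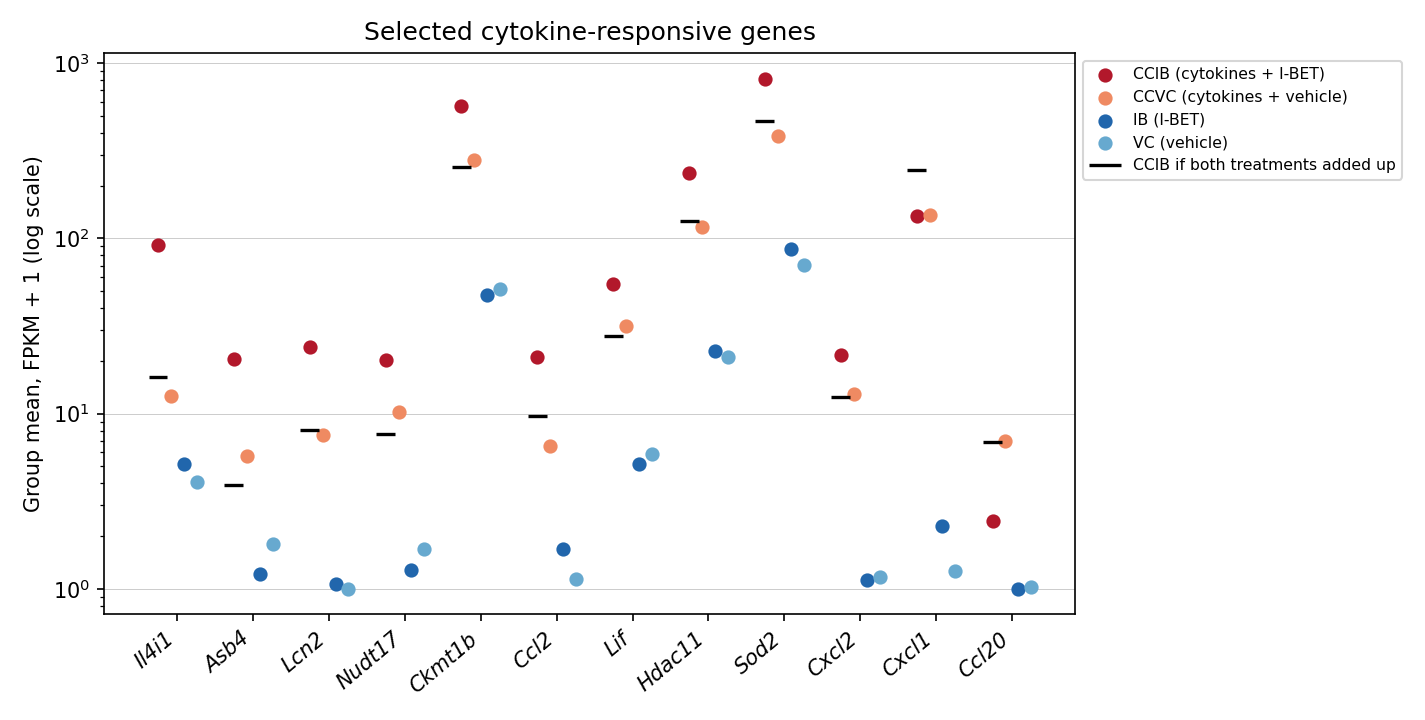
Group means of 12 cytokine-responsive genes as FPKM + 1 on a log scale, with CCIB, CCVC, IB and VC from left to right in each gene. The black bar is the CCIB value that responses additive on the log2 scale would give, and no error bars can be drawn. The CCIB point stands above its bar in the 10 genes from Il4i1 to Cxcl2 and below it in Cxcl1 and Ccl20.

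Of 28 genes of the NF-kB pathway and its targets 2 were positive and 2 negative (7.14% each, beside 2.01% and 2.84% of all genes), with a median of -0.08, and 2 were positive and 5 negative with a pseudocount of 0.1 FPKM. Of 49 interferon-response genes 2 (4.08%) were positive and 0 negative, with a median of 0.00. The positive NF-kB genes were Sod2 and Nos2, the inducible nitric oxide synthase. Nos2 was at 18.8 FPKM in CCIB, 11.2 FPKM in CCVC, 0.0337 FPKM in IB and 0.00878 FPKM in VC (interaction 0.66, and 0.45 with a pseudocount of 0.1 FPKM), and a second row named NOS2 gave nearly the same means. The negative ones were Nfkbiz, a nuclear co-factor of NF-kB, and Ier3, with interactions of -0.66 and -0.64. Ripk2, a kinase that activates NF-kB, lay outside the list and was at 125 FPKM in CCIB, 109 FPKM in CCVC, 11.4 FPKM in IB and 5.83 FPKM in VC (interaction -0.68).

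A pair of class II antigen presentation genes was lower with I-BET under cytokines. Of 29 genes of antigen presentation and the immunoproteasome 3 were negative (10.3%, beside 2.84% of all genes) and 0 positive, with a median of 0.06. RT1-Ba was at 1.00 FPKM in CCIB, 2.97 FPKM in CCVC, 0.0144 FPKM in IB and 0.109 FPKM in VC (interaction -0.86). RT1-Da, which like RT1-Ba encodes an alpha chain of class II, was at 1.98 FPKM in CCIB, 3.57 FPKM in CCVC, 0.172 FPKM in IB and 0.0956 FPKM in VC (interaction -0.71). Neither of these neighbouring genes exceeded 3.57 FPKM in any group. The third, Pomp, which assembles proteasomes, had an interaction of -0.59 with IB the highest mean, and -0.56 after median centring, which is within the criterion. With a minimum mean of 5 FPKM, 1 of 25 genes of this list was negative.

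A further set of positive genes was low with I-BET in resting cells only. Ntn1, the guidance factor netrin-1, was at 85.5 FPKM in CCIB, 84.6 FPKM in CCVC, 4.35 FPKM in IB and 14.8 FPKM in VC (interaction 1.58). Serping1, the inhibitor of complement C1, was at 39.5 FPKM in CCIB, 43.3 FPKM in CCVC, 11.9 FPKM in IB and 30.8 FPKM in VC (interaction 1.17). Pdzk1ip1, a small membrane protein of epithelia, was at 704 FPKM in CCIB, 742 FPKM in CCVC, 199 FPKM in IB and 469 FPKM in VC (interaction 1.16). In the 3 genes the cytokine groups were level and I-BET alone was the lowest mean. Tmem173, which encodes the DNA sensing adaptor STING, Nt5e, the ecto-enzyme CD73, and Arg1, the liver-type arginase, had interactions of 1.254, 1.47 and 0.61 with IB again the lowest mean. IB stood below 3 groups within 1.5-fold of each other in 16 positive genes, and VC stood above them in 16, among them the scaffold gene Iqgap2 and the kinase gene Pak3.

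The opposite-sign gene Pdgfb, the platelet-derived growth factor B chain, was at 11.5 FPKM in CCIB, 5.19 FPKM in CCVC, 1.248 FPKM in IB and 2.67 FPKM in VC (interaction 1.72). Among the largest positive values was also that of Faim, an inhibitor of Fas-induced death, which was low in CCVC alone. It was at 5.08 FPKM in CCIB, 0.477 FPKM in CCVC, 3.93 FPKM in IB and 3.77 FPKM in VC (interaction 1.99). Fewer fragments stand behind Faim than behind most genes kept. Its FPKM times gene length in kilobases, which is scaled for read depth and is not a fragment count, was at most 3.08. Gspt1, a translation termination factor, was at 8.12 FPKM in CCIB, 1.51 FPKM in CCVC, 3.26 FPKM in IB and 2.14 FPKM in VC (interaction 1.42). Rlim, St5 and Tsen34 had interactions of 1.55, 1.45 and 1.40, and the highest mean was VC for Rlim and Tsen34 and CCVC for St5. Cetn4, a centrin gene, was at -1.61 and Tceal6, of a family of elongation factor-like proteins, at -0.86.

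Of 21 β-cell transcription factors 1 was negative (4.76%, beside 2.84% of all genes) and 0 positive (median -0.04). Of 34 genes of the insulin granule 0 passed in either direction (median -0.09). The negative factor was Nkx2-2, at 12.4 FPKM in CCIB, 27.7 FPKM in CCVC, 39.6 FPKM in IB and 55.4 FPKM in VC (interaction -0.62). Its differences in plain FPKM were almost equal, with a difference of differences of 0.529 FPKM, so the sign depends on the scale. Among the insulin genes, further β-cell factors, the secretory gene Snap25 and the antioxidant gene Sod1, interactions were -0.20 for Ins1, -0.18 for Ins2, 0.17 for Pdx1, 0.02 for Mafa, -0.04 for Pax6, 0.06 for Nkx6-1, 0.12 for Neurod1, -0.09 for Foxo1, 0.26 for Isl1, 0.20 for Snap25 and -0.08 for Sod1. In the endoplasmic reticulum, 46 genes of folding and the unfolded protein response also gave 0 in either direction (median 0.06).

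None of 57 cell cycle genes (median 0.12), 63 respiratory chain genes (median -0.08), 18 proteasome subunits (median 0.03), 15 matrix genes (median 0.08) or 10 mitochondrially encoded genes (median 0.13) passed in either direction. Of 36 apoptosis and survival genes 1 was negative, the receptor gene Tnfrsf12a, of 14 BET-related genes 1, Txnip, which binds thioredoxin, of 10 histone genes 1, Hist3h2a, and of 166 Zfp and Znf genes 2, Zfp92 and Zfp235. These are 2.78% of the apoptosis list, 7.14% of the BET list, 10.0% of the histone list and 1.20% of the zinc finger list, beside 2.84% of all genes, and each share but the last rests on 1 gene. Of 29 antioxidant genes 2 were positive, Sod2 and Gstm1, and 2 negative, Slc7a11 and Txnip (6.90% each). Of 58 ribosomal protein genes 2 were positive, Rps19 and 1 of the 2 rows named Rplp1 (3.45%). In total 52 of the 427 selected genes stood in any of the 24 lists.

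**Figure D4:**
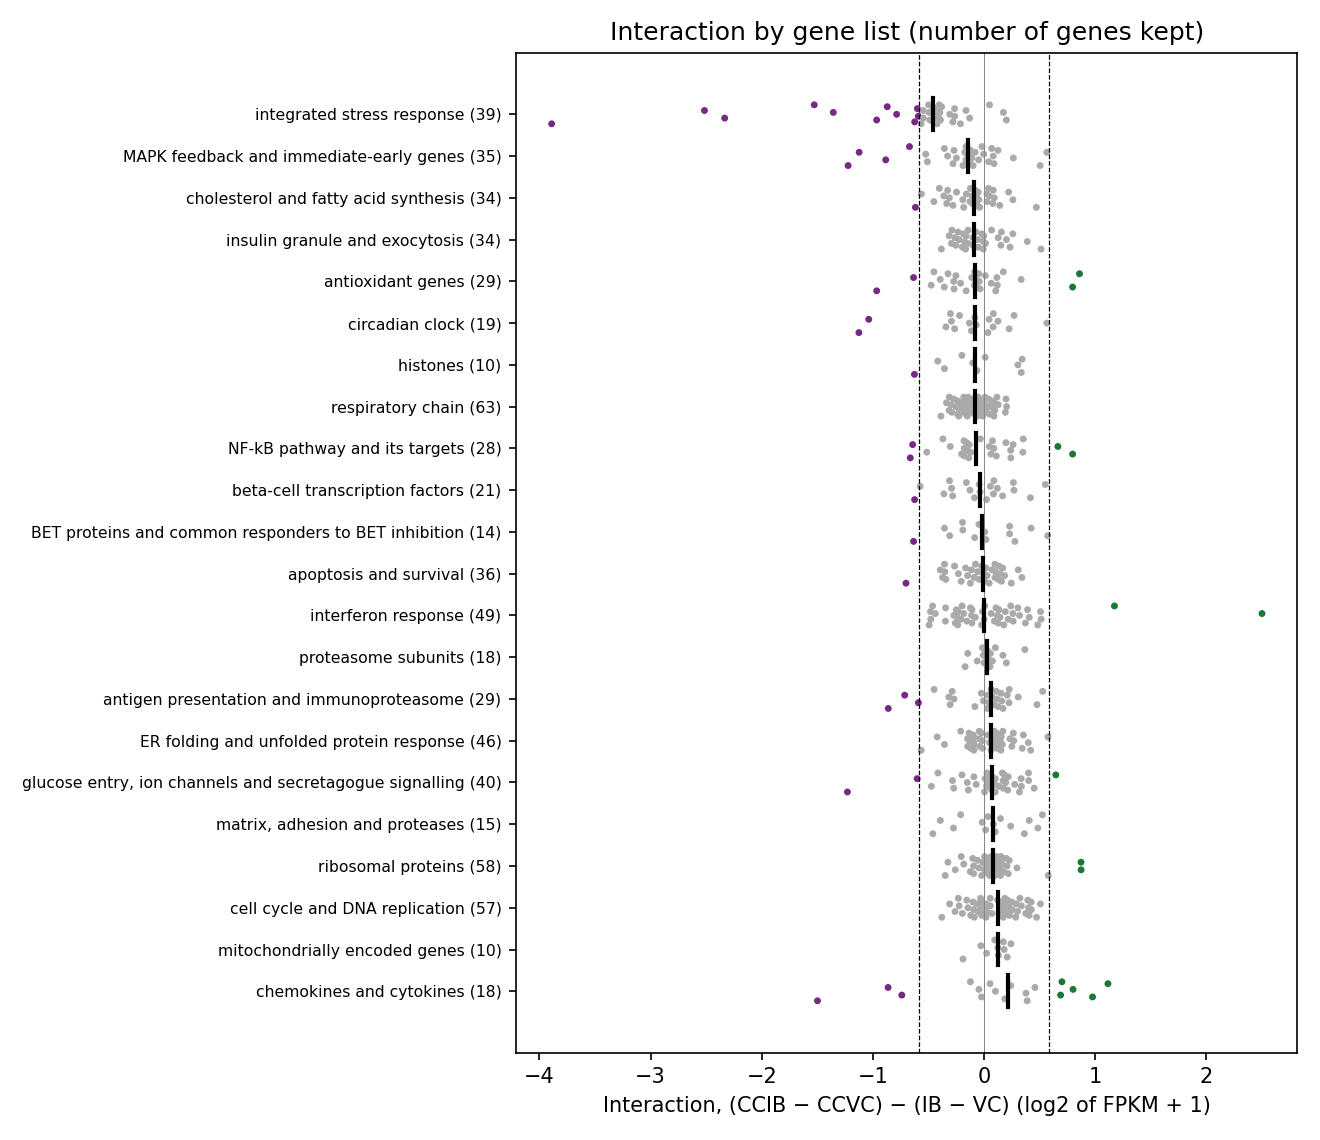
Interaction of each gene kept in 22 gene lists (the solute carrier and zinc finger lists are left out), with green for positive and purple for negative genes past the 1.5-fold criterion and grey for the others, and the list median as a black bar. Lists are ordered by median. The stress response list has the lowest median, -0.45, with 11 of 39 genes left of both dashed lines. The chemokine list has the highest median, 0.21, with genes past the criterion on both sides.

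The selected genes were shorter and less abundant than the rest. Their median over the 4 groups was 5.91 FPKM, against 17.6 FPKM for all 8795 genes, and their median length 1575 bases against 2150 bases. Of the genes between 1 and 2 FPKM, 5.42% were positive and 10.8% negative, and of those at 100 FPKM or more 1.31% and 0.524%. Rows whose FPKM times gene length in kilobases stayed under 5 in every group made up 79 of the 427 selected genes (18.5%) and 3.91% of all. Among these rows were Faim, Cetn4, Ccl20, Cdc42ep5, RT1-Ba, RT1-Da and Pomp. The part of low level in the interactions was not tested, since no library values were at hand.

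**Figure D5:**
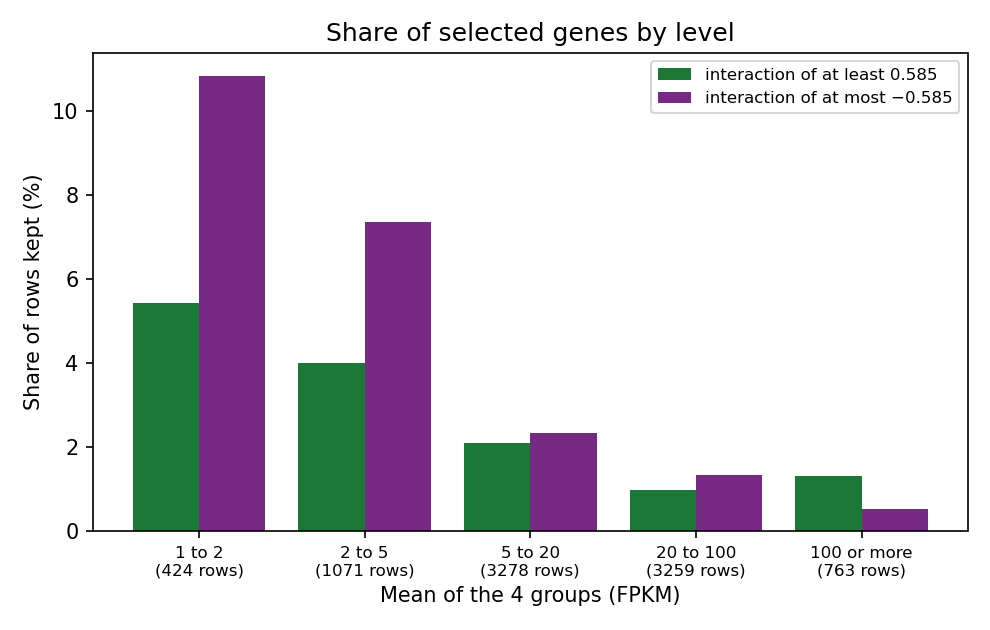
Share of genes kept that had a positive (green) or negative (purple) interaction, in %, by the mean of the 4 groups in FPKM, with the number of genes under each pair of bars. The negative share is highest in the lowest class, at 10.8%, and exceeds the positive share in every class but the highest.

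Rows with an identifier in place of a symbol were 91 of 427 (21.3%), against 7.36% of all. Many of the most extreme values are of this kind. LOC100910210 was at 17.5 FPKM in CCIB, 0.635 FPKM in CCVC, 0.339 FPKM in IB and 0.773 FPKM in VC (interaction 3.91). LOC100911730, described as CD151 in the deposited table, was at 3.13 FPKM in CCIB, 15.0 FPKM in CCVC, 16.3 FPKM in IB and 4.30 FPKM in VC (interaction -3.66). Further such rows that stood apart in 1 group were AABR06109214.1 at 3.55, LOC686807 at 2.00, LOC100910137 at 1.77, AABR06055202.1 at 1.39, LOC100912478 at -0.84, LOC100911918 at -1.86 and LOC100910130 at -2.70, and the mitochondrial row AY172581.8 was at 1.71. Reads of such rows may be shared with near-identical copies, so these values are uncertain. For 9 selected rows the table held a second row of the same gene, by name or by description, and once the fragments of both rows were summed the interaction of 3 of them, Ctnnd2, Dbf4 and Rplp1, came within the criterion. RragB, a GTPase of amino acid sensing, had -2.20 in 1 row and -0.27 in the other, and -1.44 in the sum. Of the selected rows 25 overlap another kept row in the deposited coordinates, among them Cxcl16 with Zmynd15 and Ier3 with Ddr1 on opposite strands, and whether reads were counted by strand is not given in the sources used here. Short RNAs were frequent, with 11 of 22 kept miRNA genes and 4 of 10 mitochondrial tRNA genes, such as Mir7a-1 at 2.32 FPKM in CCIB, 2.49 FPKM in CCVC, 7.80 FPKM in IB and 1.18 FPKM in VC (interaction -2.09). With 97 bases of length, FPKM times gene length in kilobases was at most 0.757 for Mir7a-1. Only 3.91% of all genes kept stayed under 5 in every group. Fewer fragments thus stand behind Mir7a-1 than behind most genes, although the product is scaled for read depth and is not a fragment count.

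Some selected genes lay close together. In the deposited coordinates 30 pairs of neighbouring selected genes lay within 100 kb, and 21 of these pairs had the same sign. The pairs include rows of the mitochondrial genome and the overlapping rows Slc25a13 and LOC100911994. Neighbours were not counted over all genes, so neither number has a background to be read against. Among them were Pdzk1ip1 and Cyp4a8, and Pnpla2 beside LOC100911730, while Faim and Cxadrl1 had opposite signs. On the X chromosome lay 18 selected genes (4.22%), of which 12 were positive, against 3.10% of all genes.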

How the data were processed

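The RNA of INS-1 cells gave 12 libraries, 3 per group. The submitters' processing notes name HISAT2 and DESeq2, both without versions, and the genome build is not given in the sources used here. The deposited table gives FPKM values in 1 column per group, taken as the authors' mean of its libraries, so single libraries and their depth were not analysed here. From these means the log2 of FPKM + 1, group differences and the interaction (CCIB minus CCVC) minus (IB minus VC) were computed over rows whose 4 means average 1 FPKM or more, and the additive CCIB value as (CCVC + 1)(IB + 1)/(VC + 1) - 1. No group difference could be tested. The selected genes and all gene lists were chosen with earlier results of these data known. Named genes are the 12 largest interactions each way among symbols that reach 5 FPKM in a group, those with opposite I-BET signs, up to 4 per list in the main direction and 2 in the other, up to 4 that stand apart in each group, those next to the thresholds and a fixed set of genes the study names, which is not all of them. Others (Psat1, Cars, Slc3a2, Slc7a1, Atf4, Ddit3, Gdf15, Nupr1, Wars, Jdp2, Dusp5, Bhlhe40, Slc25a37, Slc25a13, Slc16a1, Rhob, Tbc1d17, Ckmt1b, Hdac11, Nudt17, Ass1, Ripk2, Tmem173, Pdzk1ip1, Arg1, Pak3, Pnpla2, Ctnnd2, Dbf4, Cxadrl1, Cx3cl1, Il23a, Ccl1, Il27, Gcg, Krt7, Zmynd15, Ddr1 and Cyp4a8) were chosen after their values were seen. Some genes that the rule selects are not reported here. RefSeq windows (GRCr8) were matched by symbol, or by an older symbol to which RefSeq adds a 1. Alternatives were a pseudocount of 0.1 FPKM, no minimum or 5 FPKM, median centring, upper-quartile scaling, a looser criterion (a ratio of 5 to 4), a 2-fold criterion and plain FPKM. The calculation was tested on simulated means. Python 3.11.15, numpy 2.4.6, pandas 2.3.3 and matplotlib 3.10.9 were used.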

Additional observations from a re-analysis of the deposited data

How the results depend on the processing

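The counts of selected genes depended on level and threshold. They were 277 positive and 374 negative with a pseudocount of 0.1 FPKM (165 of the 177 and 242 of the 250 among them), 111 and 125 with a minimum mean of 5 FPKM, 42 and 59 at 2-fold, and 667 and 995 at the looser ratio of 5 to 4. Genes with opposite I-BET signs numbered 12, and they were 28 with the smaller pseudocount, 4 with the higher minimum, 6 at 2-fold and 57 at the looser ratio. They were 7 with FPKM times gene length in kilobases of at least 5 in 1 group, which was added after the values were seen and left 147 positive and 201 negative genes. Without a minimum (208 and 293), under upper-quartile scaling (181 and 245) and with the same sign also required in FPKM (169 and 246) the counts stayed within 1.5 times. Median centring gave 202 and 212, so the positive share was 48.8% instead of 41.5%. Of 95 named values, 8 crossed the criterion with a pseudocount of 0.1 FPKM, among them Ccl2, Fos and Nos2, 7 with centring, among them Adcyap1r1 and Pomp, and 4 with scaling, and Nkx2-2 had the other sign in FPKM (0.529). No alternative could leave out a library, because the table used holds group means only. No paired analysis was possible because the columns carry no replicate numbers.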
